A study of Mus musculus with 20 samples.

Results

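The cells described here are those of the cluster labelled as the oligodendrocyte lineage of the mouse spinal cord, taken as every cell with cluster number 11 in the authors' clustering of 6 single-cell libraries. They number 255 among the 21016 cells of the count table, which holds 14 clusters. All mice were female C57BL/6J animals aged 8 to 10 weeks. They ate either vehicle chow or chow with 1200 ppm PLX5622, an inhibitor of the receptor Csf1r that depletes microglia, starting 2 weeks before surgery and lasting until the cords were taken. Surgery was a contusion spinal cord injury (SCI) at T9 or a sham laminectomy. The 6 libraries are sham, 7 days post injury (dpi) and 28 dpi under each diet, and the label of each sham library covers 7 and 28 days together. Each library was a pool of 3 to 4 mice and used 1 cm of cord that was not perfused, was freed of myelin and dead cells with beads, and was captured on the 10x Chromium platform.

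Oligodendrocyte precursor cells divide and migrate throughout adult life. They carry the PDGF receptor Pdgfra and the proteoglycan NG2, encoded by *Cspg4*. A precursor that leaves the cycle passes through a short committed stage marked by the receptor Gpr17 and by *Bmp4*, *Bcas1* and *Enpp6*, and then becomes a myelinating cell that makes Mbp, Mag, Mog and other myelin proteins. The transcription factors Olig1, Olig2 and Sox10 are present at every stage. After a contusion, oligodendrocytes die and precursors around the lesion divide and form new ones.

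There were 22 of these cells in sham vehicle, 107 at 7 dpi vehicle and 55 at 28 dpi vehicle, and 4, 28 and 39 in sham, 7 dpi and 28 dpi under PLX5622. Transcripts were counted as unique molecular identifiers (UMIs). The UMIs of a gene were added up within a library and are given as CPM, their count scaled to 1000000 UMIs of that library's cells. The sums ran from 15776 UMIs in sham PLX5622 to 327773 at 7 dpi vehicle, and the median cell held between 1581 UMIs (28 dpi vehicle) and 4152 UMIs (sham PLX5622). With 1 library per condition there is no replicate check and no test. The 95% intervals given with CPM, shares and log2 ratios cover counting error only, and differences between pools of mice cannot be told apart from the condition. Sham PLX5622 had under 10 cells, so the 2 comparisons that need it were left out and its values are given as they stand. A single sham vehicle library is the reference for both days after SCI. The table lists a gene at 0 in a library where very few barcodes had it, and a 0 below is such a listing. In sham PLX5622 the unfiltered matrix held 14 UMIs of *Neu4* and 6 of *Sox10* in these cells, both at 0 in the table.

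The label was compared with 8 lineage markers, of which 5 were named when the cluster was picked. All 8 had their highest CPM in this cluster among the 14. The clusters were made from these same counts, so this is no independent check. *Gpr17* reached 615 CPM over the 255 cells, which was 93.1% of the UMIs of the gene in the whole series. For *Neu4*, a sialidase, the share was 92.3%, for *Sox10* 86.5%, for the secreted C1q-like protein *C1ql1* 86.3% and for *Olig1* 62.8%. It was 61.25% for *Nkx2-2*, 51.7% for *Olig2* and 35.2% for *Sox8*. At least 1 of the 8 markers was found in 241 cells and at least 2 in 225, so that 14 cells carried none. The label did not hold for every cell. In 1 subcluster of 11 cells *Olig1*, *Sox10* and *Pdgfra* were at 0 and neuronal genes led, and 2 of the 4 cells of sham PLX5622 held 226 and 227 UMIs of astrocyte markers with at most 1 lineage marker each. They are kept in the sums.

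Transcripts of other cell types were present and differed between the libraries. A list of 17 microglial and macrophage transcripts, narrower than the full marker lists and without *Apoe* and *Fabp5* among others, summed to 385 CPM in sham vehicle, 11838 at 7 dpi vehicle and 9687 at 28 dpi vehicle. Under PLX5622 the sums were 127, 2028 and 542 CPM in sham, 7 dpi and 28 dpi. The 8 astrocyte markers summed to 5127 CPM in sham vehicle, where 2 cells held 107 and 108 of the 400 UMIs, and to 961 and 1437 CPM at 7 and 28 dpi vehicle. In sham PLX5622 they reached 31313 CPM, most of it from the 2 cells named above. The 4 neutrophil markers stood at 3685 CPM at 7 dpi vehicle, where 1 cell held 1018 of 1208 UMIs, and between 0 and 238 CPM elsewhere. Beside the results that they touch, values are also given over cells low in myeloid transcripts, those with fewer than 3 UMIs of the 17, which numbered 19, 32 and 18 in sham, 7 dpi and 28 dpi vehicle and 4, 15 and 32 under PLX5622. No cell of the cluster shared its barcode with another library.

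Their share among all cells depended on what else was in the library. Under vehicle they made up 1.23% (0.770 to 1.85) of sham cells, 1.44% (1.18 to 1.74) at 7 dpi and 0.559% (0.421 to 0.726) at 28 dpi. Under PLX5622 the shares were 0.813% (0.222 to 2.07) of sham cells, 5.56% at 7 dpi, with an interval of 3.72 to 7.93, and 4.15% (2.97 to 5.63) at 28 dpi. The 2 injured PLX5622 libraries thus lay above every vehicle library, and the 28 dpi vehicle library lay lowest. Microglia, which the diet depletes, and macrophages are in that denominator. Another denominator left out 4 clusters picked by their microglial or macrophage marker lists. By size, those of 1067 and 617 cells match what the study labels monocytes and intermediate progenitors. Among the cells outside the 4, the vehicle shares were 2.64%, 7.91% and 2.71% in sham, 7 dpi and 28 dpi. The PLX5622 shares were 0.924%, 9.21% and 6.79%. Counted against astrocytes, ependymal cells and themselves, they made up 5.39%, 30.7% and 9.57% under vehicle, and 1.57%, 23.5% and 17.0% under PLX5622. At 7 dpi the order of the diets therefore turned with the denominator. Outside the 4 clusters the intervals of the diets overlapped (6.53 to 9.48 under vehicle and 6.21 to 13.0 under PLX5622). They also overlapped in the last denominator (25.9 to 35.8 under vehicle and 16.2 to 32.2 under PLX5622). In each denominator 7 dpi vehicle stood above sham vehicle, with intervals apart except among all cells. Fewer cells of another type and more of these cannot be told apart in a share, and how well each type survived dissociation was not tested.

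**Figure D1:**
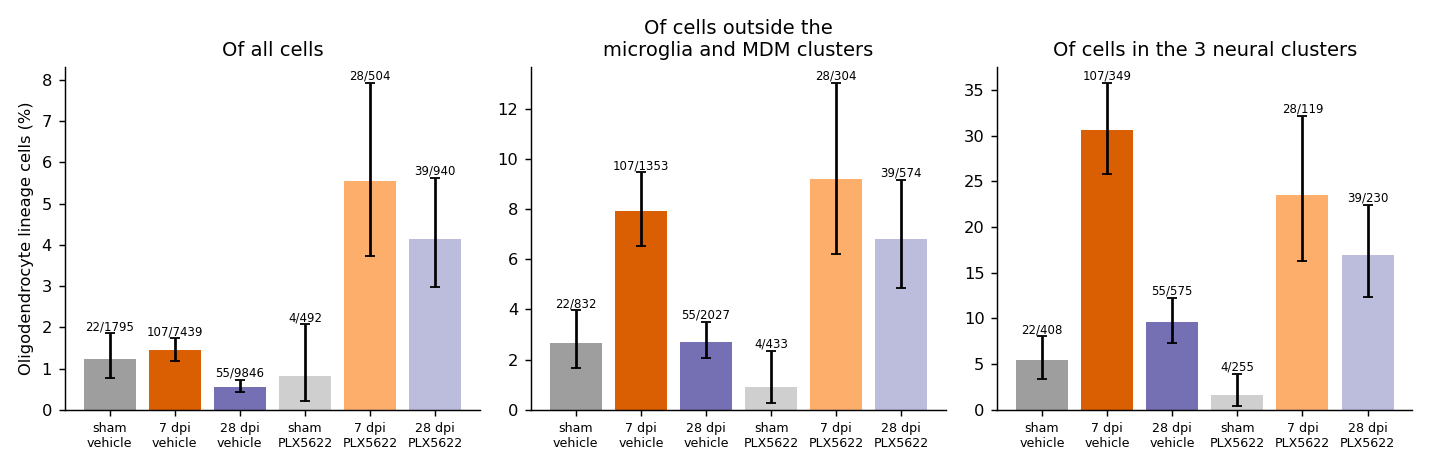
Percentage of cells that belong to the oligodendrocyte lineage cluster in each of the 6 libraries, by denominator. The denominators are all cells, cells outside the clusters picked by microglial or macrophage marker lists, and cells of neural clusters. Bars are the share and whiskers the exact Clopper-Pearson 95% interval. The share at 7 dpi vehicle is 1.44% of all cells and 30.7% of neural cells.

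Among the transcription factors of the lineage, *Olig1* was the most abundant by UMIs. It stood at 4435 CPM (3979.6 to 4927) in sham vehicle, 2349 at 7 dpi vehicle, 2655 at 28 dpi vehicle, 3803 in sham PLX5622, 1926 at 7 dpi PLX5622 and 4361 at 28 dpi PLX5622. The libraries at 7 dpi under both diets and at 28 dpi under vehicle were low, and the interval of none of them reached that of sham vehicle or of 28 dpi PLX5622. Outside sham PLX5622, where it had 4 UMIs, *Olig2* was in the same order, with 1218 CPM in sham vehicle, 473 and 514 CPM at 7 and 28 dpi vehicle, and 395 and 887 CPM at 7 and 28 dpi PLX5622. Its log2 ratio to sham vehicle was -1.36 (-1.74 to -0.98) at 7 dpi vehicle. *Sox10*, which is needed for myelin gene expression, went the other way. It was at 256 CPM in sham vehicle and 464 at 7 dpi vehicle, a log2 ratio of 0.86 (0.18 to 1.61), then 324 at 28 dpi vehicle, 299 at 7 dpi PLX5622 and 534 at 28 dpi PLX5622.

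Receptors that mark the stages also split. *Pdgfra*, which receives the PDGF signal that keeps precursors dividing, was at 1307 CPM (1066 to 1587) in sham vehicle, 592 (512 to 681) at 7 dpi vehicle and 1009 (826 to 1220.0) at 28 dpi vehicle. Under PLX5622 it was at 697 CPM in sham, 449 at 7 dpi and 1363 at 28 dpi. Both 7 dpi libraries had the lowest values, although the interval of sham PLX5622 (348 to 1248) covered them. In sham vehicle 1 cell held 28 UMIs of *Pdgfra*. With cells thinned to 1000 UMIs, 58.8% of sham vehicle cells had the gene, with an interval of 32.9 to 81.6. The vehicle shares after SCI, 51.6% (7 dpi) and 53.5% (28 dpi), lay inside that interval. So did those under PLX5622, 35.0% (7 dpi) and 71.4% (28 dpi). The lower CPM at 7 dpi vehicle was thus not matched by a clear drop in the share of cells. *Gpr17*, the receptor of the committed stage, was at 372 CPM (249 to 534) in sham vehicle, 793 (699.7 to 896) at 7 dpi vehicle and 599.5 (461 to 767) at 28 dpi vehicle, and at 469.6 and 558 CPM at 7 and 28 dpi PLX5622. The 7 dpi vehicle library was the highest, and its interval did not meet that of sham vehicle. After each cell was thinned to 1000 UMIs, *Gpr17* was found in 11.8% (1.46 to 36.4) of sham vehicle cells, 40.0% (30.1 to 50.6) at 7 dpi vehicle and 37.2% (23 to 53.3) at 28 dpi vehicle. Without thinning these shares were 36.4%, 68.2% and 38.2%. In endothelial cells, which should lack it, 0 of 76, 1 of 299 and 0 of 303 cells of these libraries had a UMI. Their median depths were 3023.5, 2409 and 1342 UMIs, against 3932.5, 2301 and 1581 in the lineage cells.

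*Neu4* was listed with the committed markers but was highest in sham vehicle, at 897 CPM (699 to 1134), against 244 at 7 dpi and 399.7 at 28 dpi under vehicle. Its log2 ratios to sham were -1.88 (-2.36 to -1.39) and -1.17 (-1.75 to -0.59). *C1ql1* was highest at 7 dpi PLX5622. It was at 551, 659 and 447 CPM in sham, 7 dpi and 28 dpi vehicle, and at 1627 CPM (1427 to 1847) at 7 dpi PLX5622 and 756 at 28 dpi PLX5622. At 7 dpi PLX5622, 145 of its 239 UMIs came from 3 deep cells that are described with the diet comparison.

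**Figure D2:**
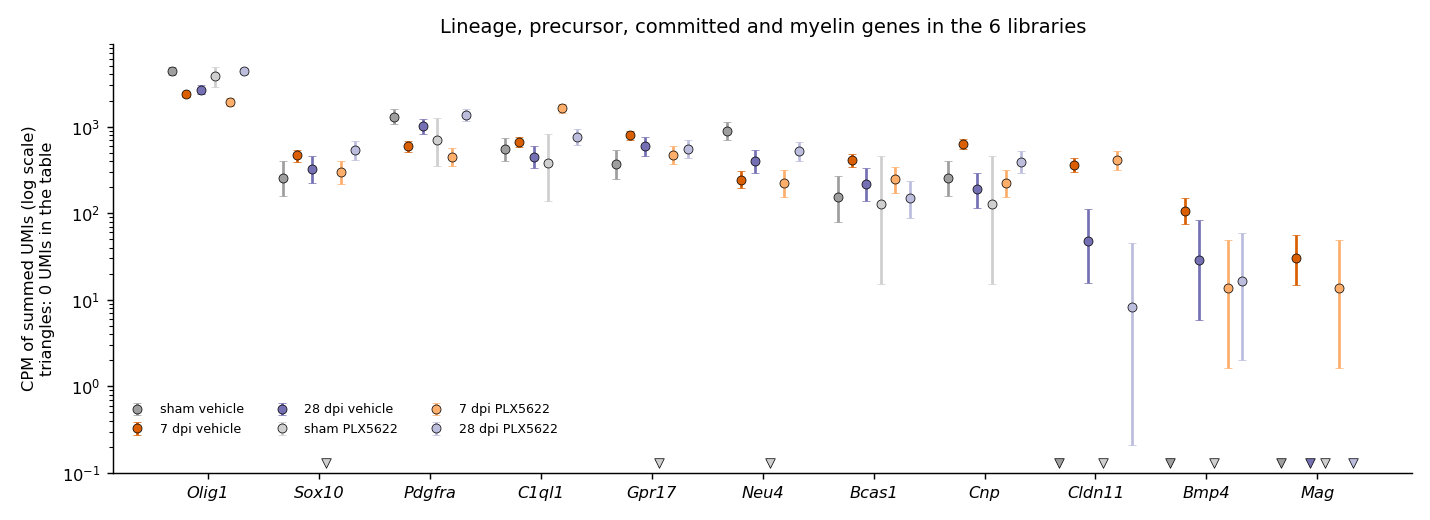
CPM of summed UMIs on a log axis for 11 lineage, precursor, committed and myelin genes, 1 point per library with its exact Poisson 95% interval. Triangles at the foot mark genes listed at 0 UMIs. Pdgfra is lowest in the 2 libraries of 7 dpi, and Cldn11 and Mag have their UMIs almost wholly at 7 dpi.

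Cells were placed in a stage by the list, of 8 markers each, of which most members were detected. Precursor markers led in 209 of the 255 cells and committed markers in 22, while 13 tied, 11 carried no stage marker and no cell was mature. Not all stage markers are specific to the lineage. Of the committed list, *Bmp4*, *Tcf7l2*, *Itpr2* and *Tns3* had 5.28%, 3.44%, 2.45% and 1.87% of their UMIs in the series in this cluster. *Gpr17*, *Neu4*, *Enpp6* and *Bcas1* had 65.3% or more. The part of transcripts from other cell types in the stage calls was not tested. Precursors made up 86.4% (65.1 to 97.1) of sham vehicle cells, 80.4% (71.6 to 87.4) at 7 dpi vehicle and 83.6% (71.2 to 92.2) at 28 dpi vehicle. Under PLX5622 they made up 71.4% (51.3 to 86.8) of the 7 dpi cells and 92.3% (79.1 to 98.4) of the 28 dpi cells. All 5 intervals overlapped. Committed cells numbered 1, 13 and 3 in sham, 7 dpi and 28 dpi vehicle, and 1, 4 and 0 under PLX5622. Of the 22 committed cells 17 thus came from 7 dpi. As shares they made up 4.55% (0.115 to 22.8), 12.1% (6.63 to 19.9) and 5.45% (1.14 to 15.1) in sham, 7 dpi and 28 dpi vehicle. At 7 and 28 dpi PLX5622 they made up 14.3% (4.03 to 32.7) and 0% (0 to 9.03). These 5 intervals overlapped as well. The committed cells of sham vehicle and sham PLX5622 also held 107 and 227 UMIs of astrocyte markers. At 7 dpi PLX5622, 3 of the 4 had 1 committed and 0 precursor markers, next to the cut. The stages are a range rather than separate types. Markers of both stages were found in 209 cells, and 69 cells were within 1 marker of the cut.

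The 2 classes also had unlike levels of genes that did not place them. *Cldn11*, the tight-junction protein of myelin, was at 1227 CPM in committed cells and 142 in precursors. The kinase *Fyn*, which acts downstream of axon contact, was at 1626 CPM in committed cells and 282 in precursors. The proliferation genes *Mki67* and *Top2a* lay lower in committed cells, at 92.1 and 61.4 CPM against 283 and 419. Among the genes that did place them, *Pdgfra* had 3 UMIs in the committed cells and 624 in the precursors. *Bmp4* was at 491 CPM against 12.3. *Enpp6*, a choline-specific phosphodiesterase of newly formed oligodendrocytes, had 12 UMIs in committed cells and 0 in precursors.

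**Figure D3:**
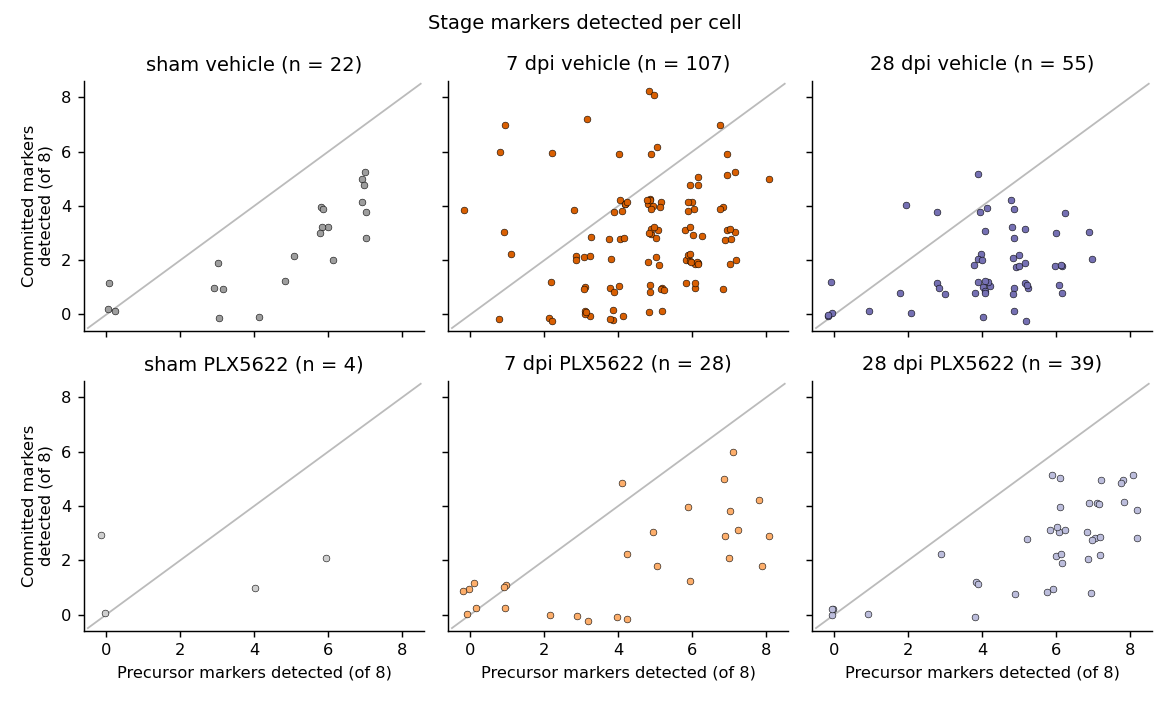
Number of committed markers against number of precursor markers detected in each cell, 1 panel per library, with a small jitter. The line marks equal numbers. Most cells lie on the precursor side in every library but sham PLX5622. The 7 dpi vehicle panel holds 13 of the 22 committed cells and 107 of all 255 cells.

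Mature oligodendrocytes were almost absent from the cluster. Of the 8 mature markers 6 were in the table. They summed to 23 UMIs at 7 dpi vehicle, 3 at 28 dpi vehicle, 3 at 7 dpi PLX5622 and 0 in the other 3 libraries. A count of 0 over the 121766 UMIs of 28 dpi PLX5622 has an exact Poisson upper limit of 30.3 CPM. A mature marker was found in 10 cells in all, 7 of them at 7 dpi vehicle. The cords went through beads that take out myelin, and the part that this step had in the absence of mature cells was not tested.

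The myelin genes Cldn11, Cnp and Mag had their highest levels in a 7 dpi library. *Cldn11* had 0 UMIs in sham vehicle, 119 at 7 dpi vehicle and 5 at 28 dpi vehicle, and 0, 60 and 1 under PLX5622. With the 0 in sham vehicle set to a floor of 3 counts it was 9.44-fold higher at 7 dpi vehicle, a value that rests on that floor. Both 7 dpi libraries were high for *Cldn11*, and the other 4 at or near 0. *Cnp*, an enzyme of non-compact myelin, was at 256, 628 and 190.3 CPM under vehicle and at 127, 225 and 394 under PLX5622. *Mag*, a receptor on the inner myelin surface, had 10 UMIs at 7 dpi vehicle, 2 at 7 dpi PLX5622 and 0 elsewhere. *Enpp6* had its 12 UMIs at 7 dpi vehicle. *Bmp4*, which is made by committed cells, had 35 UMIs there and at most 3 in any other library. Of the UMIs at 7 dpi vehicle, 15 cells of subcluster 6, described at the end, held 82 of *Cldn11*, 8 of *Mag*, 12 of *Enpp6* and 26 of *Bmp4*.

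At 7 dpi vehicle, 1517 genes had at least 50 UMIs together with sham vehicle. Of these 17.7% were at least 2-fold higher and 7.71% at least 2-fold lower at 7 dpi (269 and 117 genes, 25.4% together), with a median log2 ratio of 0.12. Scaled with edgeR's TMM the counts were 421 higher and 45 lower, and with DESeq2's size factors 460 and 35, since these add 0.37 and 0.45 to every log2 ratio. Each list is set beside those shares.

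Myelin and committed genes were on the high side at 7 dpi. In part their UMIs lay in 15 of the 107 cells at 7 dpi vehicle, those of subcluster 6, which is described at the end. These cells held 82 of 119 UMIs of *Cldn11*, 56 of 135 of *Bcas1* and 91 of 260 of *Gpr17*. This comparison was not run without them. Of the 5 myelin genes that could be compared 3 were at least 2-fold higher (*Cldn11*, *Mpzl1* and *Cnp*) and none lower, with a median log2 ratio of 1.29. *Cnp* had a log2 ratio of 1.29 (0.63 to 2.03). Of 6 committed markers 3 were at least 2-fold higher (*Bcas1*, *Gpr17* and the calcium channel *Itpr2*) and *Neu4* was lower. *Itpr2* is not specific to the lineage, with 2.45% of its UMIs in the series in this cluster. *Bcas1* had a log2 ratio of 1.42 (0.57 to 2.41) over all cells but -0.20 in the cells low in myeloid transcripts, on 9 UMIs in each library.

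Precursor markers and their transcription factors were on the low side by CPM. Of 7 precursor markers *Pdgfra* was at least 2-fold lower, at -1.14 (-1.5 to -0.78), and the median was -0.66, or -0.29 and -0.21 under TMM and DESeq2, where none passed 2-fold. The thinned shares of cells with *Pdgfra*, given above, overlapped between these libraries. *Lhfpl3* was at -0.86 (-1.20 to -0.51), and *Cspg4*, the NG2 proteoglycan, at 0.24 (-0.36 to 0.89). Of 10 transcription factors 3 were at least 2-fold lower (*Olig2* and *Id2* among them), and the median was -0.38 by CPM but 0.06 with DESeq2's factors. *Id2*, an inhibitor of differentiation factors, had 410.1 CPM in sham vehicle, 159 at 7 dpi and 181 at 28 dpi.

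Channels, adhesion molecules and matrix are given by list. Of 8 ion channels and transmitter receptors none was 2-fold higher and 3 were lower, with a median of -0.95, and 2 of the 8 under TMM or DESeq2. *Gria2* and *Gria4* encode AMPA-type glutamate receptor subunits, through which axons signal to precursors. *Gria2* was at 1243 CPM in sham vehicle, 412 at 7 dpi and 676 at 28 dpi, and *Gria4* at 577, 241 and 190.3. Their log2 ratios at 7 dpi were -1.59 (-1.98 to -1.20) and -1.26. Of 11 adhesion genes 5 were lower (*Ntm*, *Lrrn1*, *Cntn1* and *Cadm2* among them) and *Ncam2* was higher, while under TMM or DESeq2 only 2 of the 11 were lower. Of 16 matrix genes *Sparcl1*, *Cspg5*, *Bcan* and *Serpine2* were lower and *Col9a3* higher, with 2 lower under TMM and 1 with DESeq2's factors. All 3 astrocyte markers that could be compared were lower at 7 dpi as well, with a median of -2.42, and their part in the lower genes was not tested.

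Ribosomal protein genes were higher as a group. Of 77 that could be compared 69 were at least 2-fold higher and none lower, with a median of 1.56. All 100 in the table took up 3.97% of the UMIs in sham vehicle, 12.1% at 7 dpi vehicle and 8.53% at 28 dpi vehicle. *Rps29* was at 718 CPM (542 to 932) in sham vehicle, 3551 at 7 dpi vehicle and 2474 at 28 dpi vehicle, and did not overlap between sham and either day. In the cells low in myeloid transcripts it was at 764, 3295 and 1619 CPM. The study names a set of genes as higher in this lineage after SCI. It holds *Rps29*, *Rpl41*, *Rplp1*, *Rpl38*, *Rpl6*, *Rpl13* and *Tmsb4x* among its 8 members, and all 8 were at least 2-fold higher at 7 dpi, with a median of 2.01. The study chose them on these libraries, so their direction is no independent evidence.

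Of 20 cytoskeletal genes 6 were at least 2-fold higher (*Arpc1b*, *Tmsb4x*, *Tmsb10*, *Tubb2b*, *Arpc2* and *Fyn*) and none lower, and 5 lay below 0. Their median of 0.30 was near the 0.12 over all genes. *Tmsb4x*, which sequesters actin monomers and is abundant in myeloid cells, was at 1807 CPM (1521 to 2131) in sham vehicle, 6685 at 7 dpi vehicle and 6119 at 28 dpi vehicle. In cells low in myeloid transcripts it was at 1652, 4888 and 3632 CPM, so that both injured libraries stayed above sham with smaller gaps. *Tmsb10*, its paralog, was at 333, 1086 and 875 CPM.

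Immune genes came next. Of 6 tested 3 were at least 2-fold higher at 7 dpi (*Serpina3n*, *B2m* and *C4b*) and none lower. The protease inhibitor *Serpina3n* was at 76.9 CPM in sham vehicle, 705 at 7 dpi and 76.1 at 28 dpi. Its 7 dpi value was 3.2 (2.05 to 4.66) above sham in log2. At 7 dpi vehicle 135 of its 231 UMIs lay in 15 cells of subcluster 6, described at the end. After thinning it was found in 11.8% (1.46 to 36.4) of sham vehicle cells and 22.1% (14.2 to 31.8) at 7 dpi, which overlap. In the cells low in myeloid transcripts it was at 77.9, 272 and 79.0 CPM. *B2m*, the light chain of MHC class I, was at 192, 424 and 685 CPM, and in the low-myeloid cells at 156, 245 and 237. The complement gene *C4b* was at 192, 412 and 371 CPM, and at 218, 340.4 and 316 in the low-myeloid cells.

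Genes at either end were ranked only with at least 10 UMIs in each library. Some genes below that limit had higher ratios, such as *Spp1* at 8.37 from 1 UMI in sham vehicle. Of the 5 ranked genes with the highest log2 ratio at 7 dpi, *Ctsd* (4.09), *Apoe* (2.91) and *Fth1* (2.55) are abundant in macrophages, and *Rps28* (2.90) and *Rpl12* (2.53) are ribosomal. *Apoe* was at 2319.9 CPM in sham vehicle and 17418 at 7 dpi vehicle, but at 2509 and 2492 CPM in the cells low in myeloid transcripts. *Ctsd* was at 231 and 3926 CPM, and at 234 and 789.7 in those cells. The 5 lowest were *Mt2* (-2.81), *Aldoc* (-2.79), *Ntm* (-2.61), *Cdkn2c* (-2.55) and *Slc1a2* (-2.42). *Aldoc* and *Slc1a2* are astrocyte markers. Of the 32 UMIs of the cell cycle inhibitor *Cdkn2c* in sham vehicle 26 came from 1 cell.

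*Ntm*, an adhesion protein of the neurotrimin family, is one of those that the study names as lower after SCI. It was at 654 CPM (487 to 859) in sham vehicle, 107 (74.4 to 149) at 7 dpi vehicle and 143 (79.9 to 235) at 28 dpi vehicle. Under PLX5622 it was at 1585 CPM in sham, 163 at 7 dpi and 558 (434 to 708) at 28 dpi. Sham vehicle and 28 dpi PLX5622 were high, and 7 dpi under both diets and 28 dpi vehicle were low. The sham PLX5622 value rests on 25 UMIs in 4 cells, 14 of them from 1 cell. In that library 2 of the 4 cells held 226 and 227 UMIs of astrocyte markers. The study also lists *Ntm* among astrocyte genes that fall after SCI. After thinning, 58.8%, 11.6% and 14% of sham, 7 dpi and 28 dpi vehicle cells had a UMI of it, against 81.8%, 25.2% and 27.3% before. In endothelial cells 0 of 76, 2 of 299 and 0 of 303 had one. Of the other genes that the study names with it, *Slc7a10* had 20, 0 and 2 UMIs in sham, 7 dpi and 28 dpi vehicle, *Vegfa* 22, 7 and 2, *Htra1* 30, 13 and 7, and *Leprel2* 10, 8 and 5. *Snhg11*, which belongs to the same group, had 15, 3 and 68 UMIs, so that its log2 ratio at 28 dpi over sham was 1.75 (0.93 to 2.66), and 67 of those 68 UMIs came from the subcluster with neuronal genes. These genes too were chosen on the same libraries, and their direction is no independent evidence.

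At 28 dpi vehicle, 561 genes could be compared with the same sham library, of which 15.2% were at least 2-fold higher and 6.77% lower (85 and 38 genes, 21.9% together, median 0.07). The counts were 104 and 27 under TMM and 109 and 26 with DESeq2's factors. Ribosomal protein genes were again on the high side, with 46 of 76 at least 2-fold higher, none lower and a median of 1.12. Of the 8 genes that the study chose on these libraries, *Tmsb4x* among them, 6 were at least 2-fold higher. Precursor markers had a median of -0.21 with none 2-fold apart in 7. Of 8 transcription factors *Sox4* was higher, at 141 CPM in sham and 399.7 at 28 dpi, and *Olig2* and *Id2* were lower. Of 6 ion channel genes *Gria4* was at least 2-fold lower, at -1.60, and of 9 adhesion genes 2 were, *Ntm* among them. All 7 microglial markers tested were higher, with a median of 4.52, and all 3 astrocyte markers lower.

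Genes at either end were again ranked only with at least 10 UMIs in each library. The highest log2 ratios among them at 28 dpi over sham were those of *Ctsd* (3.70), *Meg3* (2.34), *Apoe* (2.22), *Rpl29* (2.16) and *Fth1* (2.10). The lowest were *Aldoc* (-2.54), *Phlda1* (-2.37), *Ntm* (-2.20), *Fos* (-2.12) and *Mt1* (-2.05). *Fos* and *Phlda1* are quickly induced by stimulation. *Fos* was at 872 CPM in sham vehicle, 424 at 7 dpi and 199.8 at 28 dpi. *Meg3*, a long noncoding RNA of neurons, had 225 of its 273 UMIs at 28 dpi vehicle in 5 cells of a subcluster described at the end.

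Between 28 and 7 dpi under vehicle, 1606 genes could be compared, of which 2.12% were at least 2-fold higher and 3.92% lower at 28 dpi (34 and 63 genes, 6.04% together, median -0.08). The counts became 22 and 155 under TMM and 20 and 185 with DESeq2's factors. Of 5 myelin genes tested 3 were at least 2-fold lower, *Cldn11* and *Cnp* among them, and none higher, with a median of -1.72. The log2 ratios were -2.93 (-4.58 to -1.67) for *Cldn11* and -1.72 (-2.46 to -1.06) for *Cnp*. *Serpina3n* was lower by a log2 ratio of -3.21 (-4.44 to -2.21). At 7 dpi vehicle, 82 of 119 UMIs of *Cldn11* and 135 of 231 of *Serpina3n* lay in 15 cells of subcluster 6. This comparison was not run without those cells. Precursor markers had none of 7 past 2-fold, with a median of 0.22 by CPM that turned to -0.06 with DESeq2's factors. *Pdgfra* was at 0.77 (0.41 to 1.12). No ribosomal protein gene of 77 was 2-fold apart by CPM, and their median was -0.51.

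Genes with at least 10 UMIs in each library were ranked. The 5 highest of them at 28 dpi over 7 dpi were *Meg3* (3.98), *Celf4* (3.30), *Nrxn3* (2.96), *6330403K07Rik* (2.44) and *Nap1l5* (2.05). Among the 5 lowest so ranked were *S100a9* (-3.97), *S100a8* (-3.84), *S100a6* (-2.84) and *Lgals1* (-1.95). *S100a8* and *S100a9* are granulocyte genes, and 581 of the 686 UMIs of *S100a9* at 7 dpi vehicle came from 1 cell. Without the cells called doublets its log2 ratio was 0.16.

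The diet comparison asks how these cells differed in cords depleted of microglia. At 7 dpi 1778 genes could be compared between PLX5622 and vehicle, of which 3.77% were at least 2-fold higher and 5.46% lower under PLX5622 (67 and 97 genes, 9.22% together, median 0.08). Much of the PLX5622 total came from few cells. The 5 deepest of its 28 cells held 62.4% of its UMIs, against 17.4% for the 5 deepest of 107 under vehicle. In 3 cells of 1 subcluster lay 62155 of the 146918 UMIs. Values that moved with them are also given without that subcluster, which leaves 25 and 92 cells. Of 1285 genes that could then be compared 101 were 2-fold apart (7.86%), in place of 164 of 1778 (9.22%).

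The 5 highest under PLX5622 at 7 dpi, among genes with at least 10 UMIs in each library, were *Fxyd7* (3.64), *Timp3* (3.57), *Klk8* (3.48), *Gadd45g* (3.48) and *Tnc* (3.47). The matrix glycoprotein *Tnc* had 123 of 124 UMIs in the 3 cells, the protease *Klk8* 50 of 50, the sodium pump regulator *Fxyd7* 107 of 112, *Gadd45g* 76 of 80 and the metalloproteinase inhibitor *Timp3* 364 of 388. Without the subcluster the ratios were 0.32 for *Fxyd7*, 0.89 for *Gadd45g* and 1.03 for *Timp3*, and the UMIs of *Tnc* and *Klk8* were too few. The intermediate filament *Vim*, at 1613 CPM against 192 under vehicle, kept a ratio of 2.08 without them, from 3.07 with them. *Serpina3n*, at 1790.1 CPM against 705, turned from 1.34 to -0.50. *C1ql1* went from 1.30 to 0.63, and to -0.053 when cells were thinned to 1000 UMIs. The astrocyte marker *Gfap* had a larger ratio than any of these, at 626 CPM against 24.4 and a log2 ratio of 4.68 (3.64 to 5.94). Its 92 UMIs at 7 dpi PLX5622 were in 9 cells, 52 of them in the 3 deep cells, against 8 UMIs under vehicle, and without the subcluster the ratio was 4.69. The part of astrocyte transcripts in the values of *Vim*, *Tnc* and *Serpina3n* was not tested.

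The 5 lowest at 7 dpi PLX5622 were myeloid transcripts, *C1qa* (-3.18), *Tyrobp* (-3.05), *Spp1* (-2.86), *Apoe* (-2.83) and *Ctss* (-2.64). Of 9 microglial markers 8 were at least 2-fold lower and none higher, and of 7 macrophage markers 5 were lower. Without the subcluster of the 3 deep cells *Apoe* was at -2.57, *Spp1* at -2.37 and *C1qa* at -2.62. *Tmsb4x* was lower as well, at 3260.3 CPM under PLX5622, with a log2 ratio of -1.04 (-1.18 to -0.89), or -0.85 without that subcluster. In cells low in myeloid transcripts its levels were 2987 and 4888 CPM.

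Committed markers were on the low side at 7 dpi under PLX5622. All 5 tested lay below 0, with a median of -0.75, and *Itpr2* alone passed 2-fold at -1.87 (-2.87 to -1.0), or -0.89 without the subcluster. *Gpr17* was at -0.76 (-1.16 to -0.37), or -0.95 without it. After thinning *Gpr17* was in 30.0% (11.9 to 54.3) of cells against 40.0% (30.1 to 50.6) under vehicle, with intervals that overlap. *Itpr2* is not specific to the lineage, with 2.45% of its UMIs in the series in this cluster. The part of myeloid transcripts in these values was not tested. By the marker count, 4 of 28 cells were committed under PLX5622 and 13 of 107 under vehicle. Of 5 myelin genes 2 were at least 2-fold lower, *Cnp* (-1.48) among them, and none was higher over all cells, while *Cldn11* was at 0.17 (-0.30 to 0.63). Without the subcluster *Cnp* was at -0.57, and *Cldn11* was over 2-fold higher under PLX5622, at 1.48 (0.75 to 2.21) from 32 and 37 UMIs. Precursor markers split, with *C1ql1* higher, *Pcdh15* lower and *Pdgfra* at -0.40 (-0.82 to 0.01). Of 10 transcription factors *Id3* (2.16) and *Sox4* (1.65) were higher and *Zeb2* (-1.02) lower, and 85 of the 121 UMIs of *Sox4* came from the 3 deep cells. Without them and the rest of the subcluster *Sox4* was at 1.16, *Id3* at 2.43 from 5 and 3 UMIs, *Zeb2* at -0.72 and *Pcdh15* at -0.84. After thinning the ratio of *Sox4* was -0.34. Ribosomal protein genes had none of 77 past 2-fold, with a median of 0.07 that turned to -0.03 with DESeq2's factors, and *Rps29* was at 3206 CPM under PLX5622.

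At 28 dpi 724 genes could be compared between the diets, of which 3.31% were at least 2-fold higher and 5.94% lower under PLX5622 (24 and 43 genes, 9.25% together, median -0.03). Genes were ranked where each library had at least 10 UMIs. The 5 highest were *Ntm* (1.97), the sulfotransferase *Chst2* (1.67), *Phlda1* (1.61), *Gria4* (1.44) and the calcium sensor *Kcnip3* (1.44). *Ntm* had a ratio with interval of 1.15 to 2.88, and was found in 34 of 39 cells against 15 of 55, at median depths of 3011 and 1581 UMIs. After thinning it was in 34.3% (19.1 to 52.2) of cells against 14% (5.30 to 27.9), with intervals that overlap. In cells low in myeloid transcripts it was at 577 CPM under PLX5622 and 237 under vehicle. Among the 5 lowest so ranked were *Spp1* (-4.45), *Apoe* (-2.88), *Ctsd* (-2.76) and *Ctsl* (-2.11), which are abundant in myeloid cells. All 7 microglial markers tested were at least 2-fold lower, with a median of -4.03.

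Precursor markers and ion channel genes at 28 dpi PLX5622 are given beside astrocyte markers. The 8 astrocyte markers summed to 2423 CPM under PLX5622 and 1437 under vehicle, and both that could be compared lay above 0, with a median of 0.80. *Ntm* and *Kcnip3* are among the leading genes of subcluster 3, beside astrocyte markers, and 30 of the 39 cells of 28 dpi PLX5622 and 10 of the 55 of 28 dpi vehicle were placed there. The part of either in the values below was not tested. Of 7 precursor markers *Cspg4* was at least 2-fold higher, at 723 CPM against 305 and a log2 ratio of 1.25 (0.65 to 1.88), and the rest ran down to 0.02 for *Vcan*, with a median of 0.36. Under TMM, which adds -0.06, *Vcan* turned below 0. *Olig1* was at 0.72 (0.50 to 0.93) and *Pdgfra* at 0.43 (0.07 to 0.80). Of 7 ion channel genes *Gria4*, *Kcnip3* and *Gria2* were at least 2-fold higher and none lower. *Gria2* was at 1577 CPM (1362 to 1816) under PLX5622 and 676 (528 to 852) under vehicle, a ratio of 1.22 (0.82 to 1.64). In cells low in myeloid transcripts the levels were 1560.2 and 711 CPM. *Cnp* was at 394 CPM against 190.3, a ratio of 1.05 (0.27 to 1.88), which dropped under 2-fold with TMM.

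Immune and ribosomal genes were on the low side in 28 dpi PLX5622. Of 5 immune genes the MHC class I genes *H2-D1* (-1.61), *B2m* (-1.38) and *H2-K1* were at least 2-fold lower and none was higher. Over all cells *B2m* was at 263 CPM under PLX5622 and 685 under vehicle. In cells low in myeloid transcripts it was at 294 and 237 CPM, from 29 and 6 UMIs, and its ratio turned to 0.31. *Tmsb4x* was at 1955 CPM against 6119, a ratio of -1.65 (-1.87 to -1.43), and at 1925 against 3632 in the low-myeloid cells. Of 77 ribosomal protein genes 8 were at least 2-fold lower and none higher, with a median of -0.66. Of the 8 genes named by the study *Tmsb4x* passed 2-fold, and all 8 lay below 0. For *Tmsb4x* the study reports this effect of the diet from the same libraries, as given above.

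**Figure D4:**
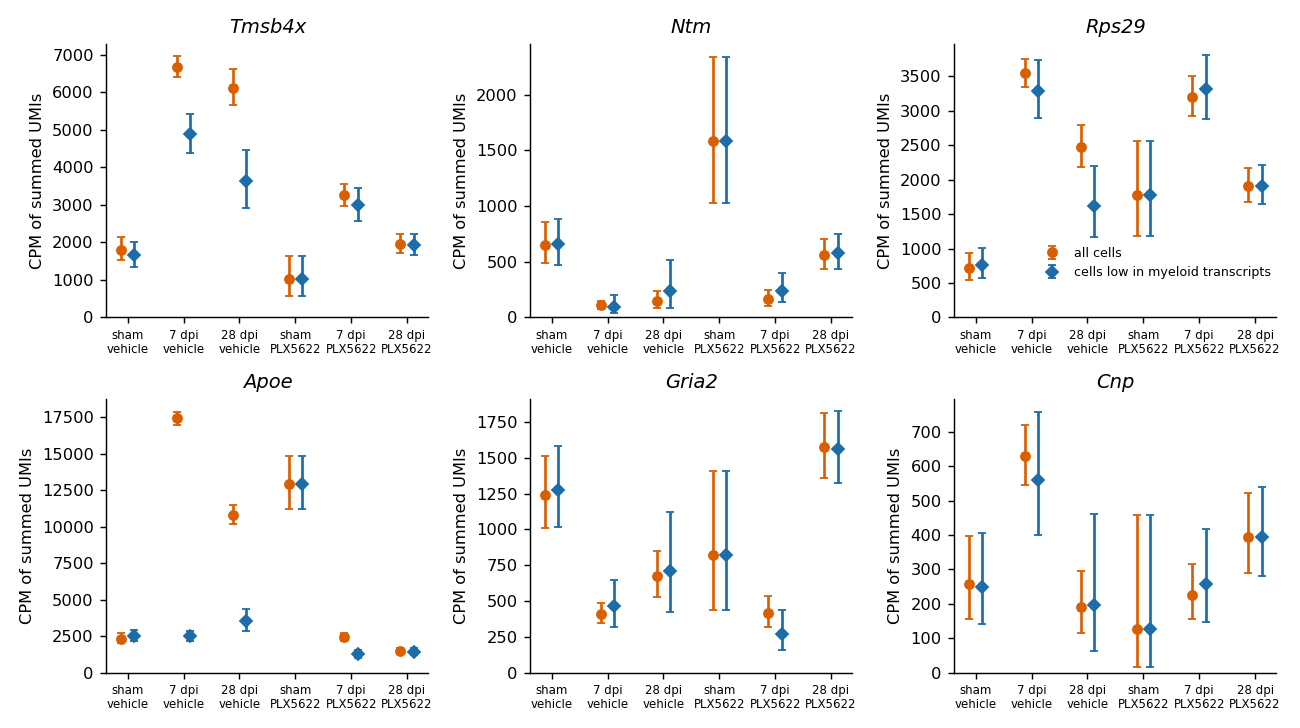
CPM of 6 genes in the 6 libraries over all cells (circles) and over cells with fewer than 3 UMIs of 17 myeloid transcripts (diamonds), with exact Poisson 95% intervals. Apoe at 7 dpi vehicle is at 17418 CPM over all cells and 2492 in the cells low in myeloid transcripts, and Gria2 at 28 dpi PLX5622 is at 1577 and 1560.2 CPM.

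Proliferation genes were found in few cells of each library. *Mki67*, a marker of cycling cells, had 50, 101 and 28 UMIs in sham, 7 dpi and 28 dpi vehicle, in 2, 21 and 11 cells. Under PLX5622 it had 0, 3 and 13 UMIs in 0, 2 and 3 cells. In sham vehicle 34 of the 50 UMIs came from 1 cell. After thinning, *Mki67* or *Top2a* was found in 11.8% of sham vehicle cells, 17.9% at 7 dpi vehicle, 14% at 28 dpi vehicle, 5.00% at 7 dpi PLX5622 and 11.4% at 28 dpi PLX5622, against 9.09%, 25.2%, 21.8%, 17.9% and 12.8% before. The thinned interval at 7 dpi was 10.8 to 27.1 under vehicle and 0.127 to 24.9 under PLX5622. In endothelial cells at most 4 cells of a library had either. At 7 dpi *Mki67* had a log2 ratio of -3.92 (-6.22 to -2.33) between the diets and *Top2a* one of -1.04, which turned to 0.23 when each cell counted alike. Of 14 cell cycle genes tested there *Mki67*, *Cenpf* and *Top2a* were at least 2-fold lower and none higher, with a median of -0.08. Against sham vehicle the 13 cell cycle genes tested at 7 dpi vehicle had a median of -0.32 by CPM but 0.04 under TMM and 0.12 with DESeq2's factors. In sham vehicle 1 cell held 437 of the 782 UMIs of the whole cell cycle list.

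Reclustering the 255 cells gave 7 subclusters, whose leading genes describe them and were not tested. Subcluster 1 (29 cells) was led by cell cycle genes such as *Ccnb1*, *Ube2c* and *Mki67*, with 1498 CPM of *Mki67*. Subcluster 2 (43 cells) was led by *Tmem176a*, *C4b*, *Gap43* and *Cspg4*, and subcluster 5 (54 cells) by *Egr1*, *Ppp1r14b*, *Lgals1* and *S100a6*. Subcluster 3 (75 cells) had astrocyte markers in front (*Aqp4*, *Slc4a4*, *Slc1a2* and *Aldoc*) beside *Pcsk2*, *Ntm* and *Kcnip3*, and stays unnamed, although *Olig1* stood at 5307 CPM and *Pdgfra* at 1317 in it. The genes that lead the subclusters differ between the libraries, so their sizes are not compared between conditions.

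Subcluster 6 (18 cells) was led by *Crym*, *Tnc*, *Klk8* and *Fxyd7*, with 1150 CPM of *Gpr17* and 951 of *Cldn11*, and its cells came from 7 dpi, 15 under vehicle and 3 under PLX5622. The 3 cells differed from the 15. They had a median of 23688 UMIs against 3536, carried 450.5 CPM of *Cldn11* against 1532, and 5856 CPM of *Timp3* against 654. By the marker count they were precursors. Subcluster 7 (25 cells) was led by *Cx3cr1*, *Ccl3*, *Ccl4*, *Mpeg1* and *Spp1*. Its median cell held 63 UMIs of the 17 myeloid transcripts and also 5 of the 8 lineage markers.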

How the data were processed

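Single-cell RNA-seq was analysed from 6 libraries, grouped by the labels, and bulk RNA-seq was not analysed here. The authors aligned reads and counted UMIs with Cell Ranger, filtered cells by genes and mitochondrial reads, integrated the libraries and made clusters with Seurat. The deposited table gives whole counts of UMIs per gene and cell. The stated filter removes cells above 3000 genes, but the table holds 716 such cells, 15 of them in this cluster. Genes whose names start mt- number 0.

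From these counts, UMIs were summed over the cluster's cells per library and scaled to CPM, with exact Poisson 95% intervals. Log2 ratios have exact conditional binomial intervals, shares exact Clopper-Pearson intervals. Genes needed 50 UMIs over both libraries, and a gene at 0 was set to 3 counts. Named genes are the markers, members of the gene lists, genes the study names for this lineage, and the 5 highest and 5 lowest log2 ratios per comparison, with at least 10 UMIs in each library. Some genes that meet this rule are not reported here. Klk8, Tnc and other genes given per subcluster, and subcluster 6 itself, were singled out after their values were seen. Members and lists were chosen with earlier results of these data known. Subclusters came from scanpy (1000 variable genes, 15 principal components, 15 neighbours, Leiden resolution 0.8). Scrublet called 13 of the cells doublets, at a rate set to 0.8% per 1000 barcodes, and they were kept. Thinning to 1000 UMIs left 213 cells. The alternatives were other scalings, thinning, other sets of cells, other denominators and other minimums of UMIs. Steps were tested on simulated counts. Scripts ran in Python 3.11.15 with scanpy 1.11.5, igraph 0.11.9, scipy 1.17.1, numpy 2.4.6, matplotlib 3.10.9 and pandas 2.3.3. Scaling factors came from edgeR 4.0.16 and DESeq2 1.42.0 under R 4.3.3.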

Additional observations from a re-analysis of the deposited data

Results flagged for a closer look

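*Cnp* moved in opposite directions with the diet at the 2 days. Its log2 ratio of PLX5622 over vehicle was -1.48 at 7 dpi, from 206 UMIs under vehicle and 33 under PLX5622, and 1.05 at 28 dpi, from 20 UMIs under vehicle and 48 under PLX5622. The difference between the days was not tested. Without the cells of subcluster 6 the 7 dpi ratio was -0.57.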

How the results depend on the processing

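No paired analysis was possible because each condition has 1 library. Leaving out cells with 3 or more UMIs over all microglial and macrophage markers, as planned, could not be run, since 0 to 5 cells per library remained, and a narrower list of 17 genes was used. This list, the minimum of 2 lineage markers and leaving out subcluster 6 were chosen after seeing the data. With 255 cells, depth limits single genes: 1 UMI is 3.05 CPM at 7 dpi vehicle and 63.4 CPM in sham PLX5622. Of 1048 values of named genes under alternatives, 818 moved little, 216 moved by more than the counting interval allows, 14 reversed a called direction and 130 dropped under 2-fold.

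Shares of cells outside the 4 clusters picked by microglial or macrophage lists, and of neural cells, were 2.64% and 5.39% in sham vehicle. They were 7.91% and 30.7% at 7 dpi vehicle, and 2.71% and 9.57% at 28 dpi vehicle. Under PLX5622 they were 9.21% and 23.5% at 7 dpi, and 6.79% and 17.0% at 28 dpi. Placed by whole subclusters, precursors made up 13.6%, 66.4% and 52.7% in sham, 7 dpi and 28 dpi vehicle, 0% in sham PLX5622 and 12.8% at 28 dpi PLX5622, since subclusters 3, 4 and 7 stay unnamed and subcluster 6 was placed as a whole. The number of genes tested changed too. At 7 dpi vehicle over sham, where 386 of 1517 genes (25.4%) were at least 2-fold apart, 117 of 315 (37.1%) were so after thinning. In low-myeloid cells 147 of 400 (36.75%) were. With a minimum of 20 UMIs there were 1101 of 4038 (27.3%), and 196 of 619 (31.7%) with 100. For 28 dpi vehicle over sham (21.9% over all cells) these were, in the same order, 34 of 115 (29.6%), 46 of 185 (24.9%), 370 of 1925 (19.2%) and 68 of 199 (34.2%). For 28 over 7 dpi vehicle they were 33, 39, 604 and 35, with 177 under TMM and 205 with DESeq2's factors. For the diets at 7 dpi (9.22% over all cells) they were 30 of 327 (9.17%), 50 of 428 (11.7%), 690 of 4460 (15.5%) and 67 of 771 (8.69%). When cells counted alike there were 290 of 1778 (16.3%), and 101 of 1285 (7.86%) without subcluster 6. For the diets at 28 dpi (9.25% over all cells) they were 27 of 169 (16.0%), 34 of 315 (10.8%), 316 of 2449 (12.9%) and 31 of 271 (11.4%).

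Directions reversed in low-myeloid cells for *Bcas1* (-0.20) and *Apoe* (-0.010) at 7 dpi vehicle over sham, and for *S100a9* (1.17) and *S100a8* (0.12) at 28 over 7 dpi vehicle. Without doublets *S100a9* was at 0.16. *Snhg11* at 28 dpi vehicle over sham reversed in precursors (-0.18) and in cells with 2 lineage markers (-4.14). Between the diets at 7 dpi, thinning reversed *C1ql1* (-0.053) and *Serpina3n* (-0.51), as did leaving out subcluster 6 for *Serpina3n* (-0.50). At 7 dpi vehicle over sham *Mki67* reversed after thinning (0.0030). Between the diets at 7 dpi *Sox4* reversed after thinning (-0.34) and *Top2a* with cells counted alike (0.23), and at 28 dpi *B2m* in low-myeloid cells (0.31). The cause was not tested.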

Other observations

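Subcluster 4 (11 cells) had neuronal genes in front, among them *Pkd2l1*, *Resp18*, *Snhg11*, *Celf4*, *Meg3* and *Map1b*. *Pkd2l1* encodes a channel of neurons that contact the cerebrospinal fluid around the central canal. The median cell carried 0 of the 8 lineage markers, and *Olig1*, *Sox10* and *Pdgfra* were at 0 in all 11, while *Snhg11* stood at 3363 CPM and *Gad2*, an enzyme of GABA synthesis, at 662. *Snhg11* had 15, 3 and 68 UMIs in sham, 7 dpi and 28 dpi vehicle, and at 28 dpi 67 of the 68 came from this subcluster. At 28 dpi PLX5622 it gave 65 of 68 UMIs of *Snhg11* and 192 of 268 of *Meg3*. The study names *Snhg11* among the genes lower in this lineage after SCI.

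Values of metallothionein and glycolysis genes follow. The metallothionein *Mt2* was at 449 CPM in sham vehicle, 64.1 at 7 dpi and 57.1 at 28 dpi, and at 444, 157 and 16.4 CPM under PLX5622. Of 6 hypoxia and glycolysis genes tested between the diets at 7 dpi all 6 lay above 0, from 0.19 to 1.07, and *Ldha* passed 2-fold, or 0.95 without subcluster 6. By day under vehicle none of 5 at 7 dpi over sham and none of 6 at 28 over 7 dpi passed it. Between 28 and 7 dpi vehicle all 13 cell cycle genes tested lay below 0, with a median of -0.28 against -0.08 over all genes, and *Birc5* passed 2-fold.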
